A study of Homo sapiens with 12 samples.

Results

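The cytochrome P450 genes of families 1 to 4 and the UDP-glucuronosyltransferase (UGT) genes of families 1 and 2 were described across 12 RNA-seq libraries of cultured human hepatoma cells. They were chosen by name alone: every protein-coding gene with a symbol of the form CYP1A1 to CYP4Z1 or UGT1A1 to UGT2B28, whatever its level. The rule found 53 genes, 35 of them CYP and 18 UGT, among 60664 gene identifiers, of which 19906 were protein-coding. One further name of this form, CYP2D7, is annotated as a polymorphic pseudogene and was not counted.

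Cytochrome P450s are haem enzymes of the endoplasmic reticulum that insert an oxygen atom into drugs, steroids, fatty acids and other lipophilic compounds, with electrons passed on by the reductase POR. UGTs then attach glucuronic acid to such compounds or to their oxidised products, which makes them soluble enough to be excreted in bile or urine. The liver holds most of both activities, under the control of liver transcription factors such as HNF4A and CEBPA and of the ligand-activated receptors AHR, NR1I2 (PXR) and NR1I3 (CAR), and immortal hepatoma lines are known to keep only part of them.

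The libraries formed 4 groups of 3: Huh-7 with si-CENPU, Huh-7 with si-NC, MHCC-97H with si-CENPU and MHCC-97H with si-NC. Huh-7 and MHCC-97H are established hepatoma lines, both labelled wild type in the si-NC groups and grown in the same serum-containing medium without any added inducer named in the labels. The small interfering RNA si-CENPU targets CENPU, a subunit of the inner kinetochore, and si-NC is its control, so that all 4 groups were transfected and no untransfected cells were included. The study set si-CENPU against si-NC in each line. Each line is 1 cell line, so a difference between lines is a difference between these cultures, and whether the 3 libraries of a group are separate cultures is not in the labels. P-values therefore measure only the spread between these libraries, which may be technical.

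Levels are TPM, transcript abundances scaled by transcript length and to a fixed total per library, which allows levels of different genes to be compared. TPM keeps no sequencing depth, so no detection limit can be given, and an exact 0 may be a failed estimate: such genes are described as listed at 0. The number of genes above 0 ranged from 18639 to 20900 per library. CENPU itself was at 0.17, 0.11 and 0.45 TPM in Huh-7 si-CENPU libraries, against 0.56, 0.84 and 0.53 TPM in Huh-7 si-NC libraries. In MHCC-97H it was at 0.22, 0.45 and 0.24 TPM with si-CENPU, against 1.17, 0.83 and 0.89 TPM with si-NC. The groups did not overlap in either line. Replicate 1 of Huh-7 si-NC was the least like its line, with a mean correlation to the other Huh-7 libraries of 0.965, against 0.975 to 0.978 for the rest of the line. The si-NC line calls of CYP1A1, CYP2W1 and CYP4F12 given below stood without it.

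The liver label was borne out by marker genes in one line and not in the other. The 8 hepatocyte markers (ALB, APOA1, APOB, TTR, SERPINA1, TF, FGB and HNF4A) summed to between 6354 and 7347 TPM in Huh-7 si-CENPU libraries and between 6713 and 7258 TPM in Huh-7 si-NC libraries. In MHCC-97H they summed to between 1.28 and 1.67 TPM with si-CENPU and between 0.68 and 1.08 TPM with si-NC, with APOB at 0 in every library. The 2 markers of fetal liver and hepatoma, AFP and GPC3, summed to between 239.8 and 435.6 TPM in Huh-7. Their sum was at most 0.16 TPM in MHCC-97H. The epithelial markers EPCAM, KRT8, KRT18 and CDH1 summed to between 4135 and 4956 TPM in Huh-7 and between 2883 and 3457 TPM in MHCC-97H. Nearly all of this sum was KRT8 and KRT18. EPCAM averaged 7.51 TPM in Huh-7 and 1.31 TPM in MHCC-97H, and CDH1 0.45 and 0.24 TPM. Markers of other cell types also moved with the line: the 4 intestinal markers (VIL1, CDX2, FABP2 and APOA4) summed to between 33.4 and 45.3 TPM in Huh-7 and to at most 0.07 TPM in MHCC-97H, where CDX2 and FABP2 were listed at 0. In Huh-7, FABP2 averaged only 0.0167 TPM. Of the leukocyte markers, LYZ ranged from 11.39 to 25.73 TPM in Huh-7 and from 0 to 0.03 TPM in MHCC-97H, and CD3E reached at most 0.08 TPM in Huh-7 and was listed at 0 in MHCC-97H. Of the 5 fibroblast markers, COL3A1 and COL1A2 averaged 5.34 and 0.658 TPM in Huh-7, against 0.00333 and 0.0333 TPM in MHCC-97H, while PDGFRB and COL1A1 averaged 0.260 and 0.0817 TPM in Huh-7, against 2.24 and 0.945 TPM in MHCC-97H. DCN was near 0 in both lines, and the 3 endothelial markers summed to under 1 TPM in every library. Their part in the differences between the lines was not tested.

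Most of the drug-metabolism genes were at or near 0 in both lines. Of the 53 genes, 9 were listed at 0 in all 12 libraries, which was the case for 12.8% of all protein-coding genes: CYP2A13, CYP4B1, CYP4Z1, UGT1A5, UGT1A8, UGT1A10, UGT2A2, UGT2B15 and UGT2B28. A further 16 never reached 0.1 TPM, 15 had their highest library between 0.1 and 0.5 TPM, 6 had it between 0.5 and 1 TPM, and 7 reached 1 TPM in at least 1 library. A group mean of at least 1 TPM was found for 6 genes, CYP1A1, CYP2S1, CYP2W1, CYP4F3, CYP4F12 and CYP4V2, against 54.1% of all protein-coding genes. No UGT gene reached 1 TPM in any library. In such bulk libraries fewer cells that express a gene and less RNA per cell cannot be told apart.

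The lines held different repertoires. Above 0 in all 6 libraries were 22 genes in Huh-7 (16 CYP and 6 UGT) and 8 genes in MHCC-97H (8 CYP and no UGT). A subset of 9 of the 53 genes, 3 CYP and 6 UGT, were above 0 in all 6 Huh-7 libraries and listed at 0 in all 6 MHCC-97H libraries, a pattern that 3.05% of all protein-coding genes had. The 53 genes together summed to 29.02, 30.61 and 33.65 TPM in Huh-7 si-CENPU libraries and to 30.15, 30.17 and 32.67 TPM in Huh-7 si-NC libraries. In MHCC-97H the sums were 7.24, 8.19 and 5.42 TPM with si-CENPU and 7.06, 7.78 and 6.68 TPM with si-NC. CYP1A1, CYP2S1, CYP2W1 and CYP4F12 made up between 68.3% and 80.3% of the sum in every library. CYP4F12 alone held between 33.6% and 46.3% of it in Huh-7, and CYP2S1 between 48.2% and 63.8% of it in MHCC-97H.

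**Figure D1:**
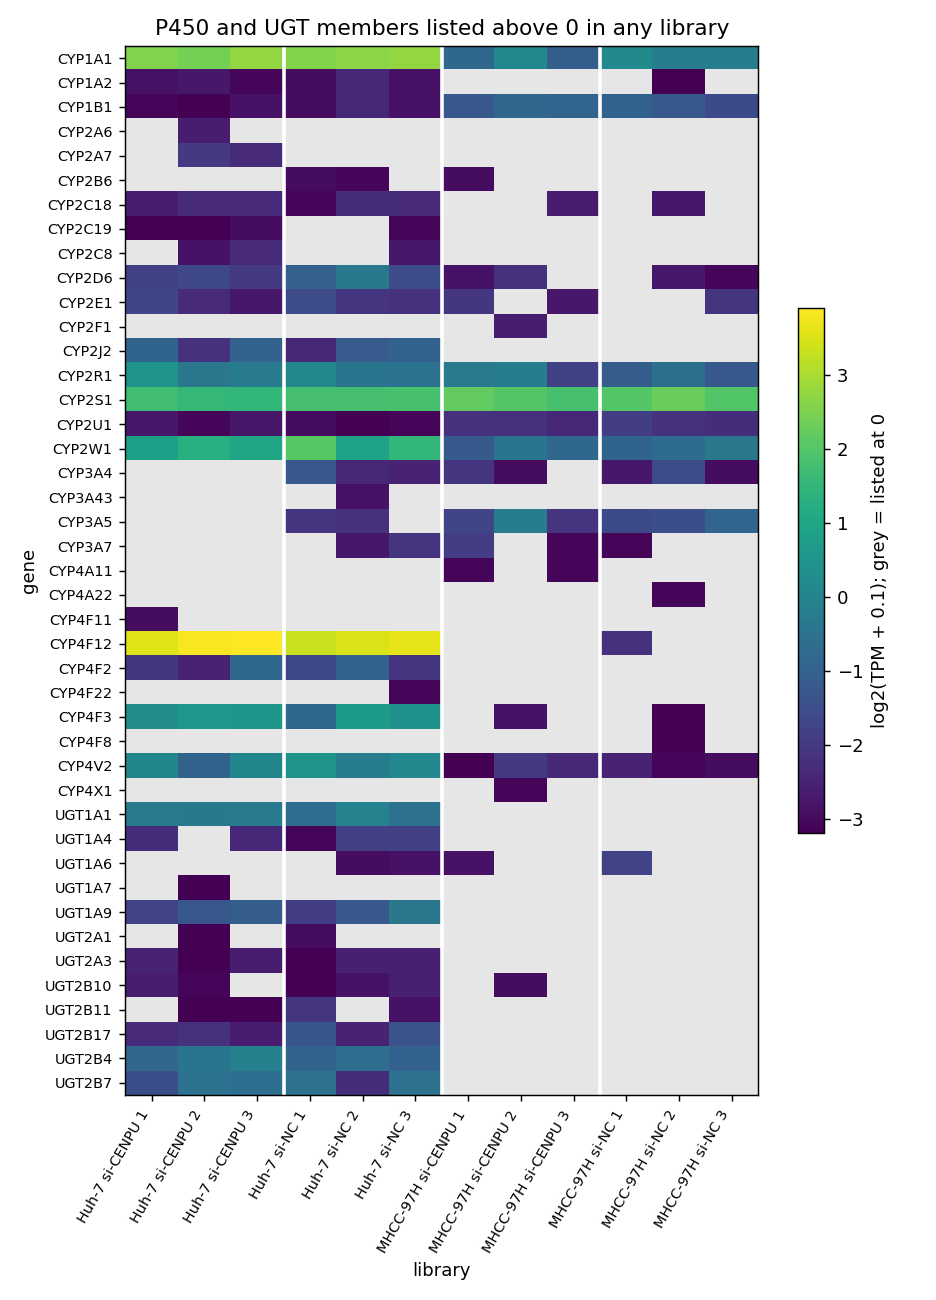
Level of 43 of the 44 genes listed above 0 in any library, as log2(TPM + 0.1) in colour, with 1 row per gene and 1 column per library; grey cells are listed at 0 and white lines part the 4 groups. CYP4F12, CYP1A1 and CYP2W1 are brightest in the 6 Huh-7 columns, CYP2S1 is bright in all 12, and the UGT rows are nearly all grey in the 6 MHCC-97H columns.

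Whether all libraries of a line lay above all libraries of the other was counted for every gene. All 6 Huh-7 libraries lay above all 6 MHCC-97H libraries for 16 of the 53 genes (30.2%), against 14.5% of all protein-coding genes, among them CYP1A1, CYP1A2, CYP2D6, CYP2J2, CYP2W1, CYP4F2, CYP4F3, CYP4F12, CYP4V2, UGT1A1, UGT1A9, UGT2A3, UGT2B4, UGT2B7 and UGT2B17. The reverse held for 2 of the 53 genes (3.77%), CYP1B1 and CYP2U1, against 28.6% of all protein-coding genes. On the scale used for testing, the median gene was lower in Huh-7 by 0.40 (log2) with si-CENPU and by 0.49 with si-NC. For CYP1A1 with si-CENPU and for CYP2S1 the difference between lines is therefore also given relative to this median. Other differences between lines are given as fitted, without this shift taken off. With trimmed-mean scaling, which moves the median difference to -0.03 and -0.05, the counts were 17 of 53 genes (32.1%) against 19.6% of all protein-coding genes, and 2 of 53 against 21.8%.

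Only 4 of the 53 genes had a mean of at least 1 TPM over the 12 libraries and were tested with limma, and CYP1A1, CYP2W1 and CYP4F12 passed that filter through Huh-7, their means in MHCC-97H being under 1 TPM. Genes that pass in this way tend to be called higher in the line that let them in, so these counts are a description. In the si-CENPU libraries 3 were called higher in Huh-7 and 1 lower, in a comparison in which 70.1% of all 11088 tested genes were called (23.9% higher and 46.2% lower). In the si-NC libraries 3 were called higher and none lower, against 73% of all tested genes (22.9% higher and 50.1% lower). When every gene that was ever above 0 was fitted, 44 of the 53 genes could be tested. Of these, 12 were called higher and 4 lower in Huh-7 in the si-CENPU libraries, against 14% and 22.1% of all 30267 genes, and 16 higher and 2 lower in the si-NC libraries, against 13.5% and 24.6%.

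Family 1 differed between the lines in opposite directions. CYP1A1, which oxidises polycyclic aromatic hydrocarbons and is the classic target of the aryl hydrocarbon receptor AHR, was at 5.78, 5.30 and 6.69 TPM in Huh-7 si-CENPU libraries and at 5.92, 6.24 and 6.62 TPM in Huh-7 si-NC libraries. MHCC-97H libraries had 0.47, 1 and 0.39 TPM with si-CENPU and 1.06, 0.77 and 0.79 TPM with si-NC. Every Huh-7 library lay above every MHCC-97H library, and the si-CENPU and si-NC values overlapped in both lines. Its mean over 6 libraries was 8.16 times as high in Huh-7, and limma gave a difference on the log2(TPM + 1) scale of 2.11 (SE 0.155, adjusted p = 2.34e-07, 2.51 above the median gene) with si-CENPU and of 1.96 (adjusted p = 4.54e-07) with si-NC. CYP1A2, the caffeine-oxidising enzyme of mature hepatocytes that neighbours CYP1A1 on chromosome 15, never exceeded 0.09 TPM in Huh-7 and was above 0 in 1 of 6 MHCC-97H libraries, at 0.01 TPM. CYP1B1, which hydroxylates oestradiol and is found mainly outside the liver, was at 0.02, 0.01 and 0.04 TPM in Huh-7 si-CENPU libraries and at 0.03, 0.09 and 0.04 TPM in Huh-7 si-NC libraries. MHCC-97H libraries had 0.32, 0.46 and 0.45 TPM with si-CENPU and 0.41, 0.33 and 0.23 TPM with si-NC, with no overlap between the lines.

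The promoters of the 3 genes with the clearest level in both lines are shown because they differ in exact matches to 2 short sequences. Each is a 300-base window from 250 bases before to 50 bases after the RefSeq start on GRCh38.p14, written in the direction of the gene. Capitals mark GCGTG, the core of the AHR response element, searched on both strands so that it may read CACGC, and TATAAA, searched on the gene's strand. The windows are chr15:74725479-74725778 on the minus strand for CYP1A1, chr7:982931-983230 on the plus strand for CYP2W1 and chr19:41192969-41193268 on the plus strand for CYP2S1.
CYP1A1 promoter: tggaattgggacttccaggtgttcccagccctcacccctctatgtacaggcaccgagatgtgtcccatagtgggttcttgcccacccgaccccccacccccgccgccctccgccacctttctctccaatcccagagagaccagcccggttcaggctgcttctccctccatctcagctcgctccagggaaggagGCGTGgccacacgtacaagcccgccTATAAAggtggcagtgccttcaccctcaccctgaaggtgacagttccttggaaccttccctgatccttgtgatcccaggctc
CYP2W1 promoter: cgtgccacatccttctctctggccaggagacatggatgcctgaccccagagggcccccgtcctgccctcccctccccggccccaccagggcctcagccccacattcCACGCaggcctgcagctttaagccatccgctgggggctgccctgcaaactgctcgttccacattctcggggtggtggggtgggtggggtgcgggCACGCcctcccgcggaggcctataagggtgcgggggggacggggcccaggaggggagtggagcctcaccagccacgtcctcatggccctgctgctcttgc
CYP2S1 promoter: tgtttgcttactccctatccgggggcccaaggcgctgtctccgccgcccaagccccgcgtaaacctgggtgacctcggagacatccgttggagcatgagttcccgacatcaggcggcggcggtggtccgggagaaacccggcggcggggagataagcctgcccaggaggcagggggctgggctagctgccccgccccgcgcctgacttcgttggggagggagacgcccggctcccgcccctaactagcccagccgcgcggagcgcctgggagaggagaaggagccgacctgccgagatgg
The CYP1A1 window held 1 GCGTG, beginning 57 bases before the start, and 1 TATAAA, beginning 32 bases before it. The CYP2W1 window held 2 GCGTG matches and no TATAAA, and the CYP2S1 window held neither. The CYP2W1 window also reads tataag, which differs from TATAAA only in its last letter and was not counted. A window was on hand for 41 of the 53 genes. GCGTG was found in 12 of them, against 36.5% of all 35116 promoter windows, and TATAAA in 14 (11 of 27 CYP and 3 of 14 UGT), against 7.33%. The HNF4-type site CAAAGTCCA was found in 5, CYP2A6, CYP2A7, CYP2A13, CYP2B6 and CYP2C8, against 0.384%. Neighbouring family members share descent, so these windows are not independent of each other, and a match is a run of letters, not a bound site. The 41 windows are 1 per gene, whereas the 35116 were not limited to 1 per gene or to protein-coding genes.

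Family 2 was led by enzymes that are not the main hepatic drug oxidisers. CYP2S1, an enzyme found mostly outside the liver that acts on fatty acid hydroperoxides and retinoids, was at 3.21, 2.80 and 2.75 TPM in Huh-7 si-CENPU libraries and at 3.4, 3.45 and 3.46 TPM in Huh-7 si-NC libraries. MHCC-97H libraries had 4.47, 3.95 and 3.46 TPM with si-CENPU and 3.91, 4.81 and 3.88 TPM with si-NC. Among the 6 genes with a group mean of at least 1 TPM it had the most even level between the lines, with a ratio of means (Huh-7 over MHCC-97H) of 0.779. Its difference was -0.34 (log2, SE 0.121, adjusted p = 0.0271) with si-CENPU and -0.22 (adjusted p = 0.114) with si-NC. Relative to the median gene it stood 0.07 and 0.27 above, and with trimmed-mean scaling it became 0.01 (adjusted p = 0.963) and 0.19 (adjusted p = 0.155), so its direction depended on the scaling.

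CYP2W1, an enzyme of the fetal gut that many tumours express, was at 1.66, 2.30 and 1.93 TPM in Huh-7 si-CENPU libraries and at 4.11, 1.78 and 2.78 TPM in Huh-7 si-NC libraries. In MHCC-97H it was at 0.34, 0.64 and 0.47 TPM with si-CENPU and at 0.44, 0.51 and 0.68 TPM with si-NC. The lines did not overlap, and the mean was 4.73 times as high in Huh-7. The difference was 1.0 (log2, SE 0.204, adjusted p = 0.00105) with si-CENPU and 1.29 (adjusted p = 0.000150) with si-NC. Its highest value, 4.11 TPM, was that of replicate 1 of Huh-7 si-NC, the library least like its line.

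The vitamin D 25-hydroxylase CYP2R1 was above 0 in all 12 libraries, at 1.31, 0.67 and 0.75 TPM in Huh-7 si-CENPU libraries and 0.98, 0.65 and 0.61 TPM in Huh-7 si-NC libraries, against 0.73, 0.78 and 0.19 TPM in MHCC-97H si-CENPU libraries and 0.37, 0.57 and 0.33 TPM in MHCC-97H si-NC libraries. The lines overlapped. CYP2U1, a fatty acid hydroxylase, ranged from 0.01 to 0.05 TPM in Huh-7 and from 0.09 to 0.17 TPM in MHCC-97H, without overlap. CYP2J2, an epoxygenase of arachidonic acid, ranged from 0.09 to 0.44 TPM in Huh-7 and was listed at 0 in all MHCC-97H libraries.

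The hepatic drug oxidisers of family 2 stayed under 1 TPM in every library. CYP2D6, which activates codeine, was at 0.19, 0.22 and 0.15 TPM in Huh-7 si-CENPU libraries and at 0.40, 0.71 and 0.25 TPM in Huh-7 si-NC libraries, against at most 0.12 TPM in MHCC-97H. Its near-identical copy CYP2D7 was at 0.40, 0.65 and 0.70 TPM in the Huh-7 si-CENPU libraries and at 0.32, 0.14 and 0.58 TPM in the Huh-7 si-NC libraries, and the counting could have split reads between the pair, so the CYP2D6 values are uncertain. CYP2E1, which oxidises ethanol and paracetamol, ranged from 0.05 to 0.24 TPM in Huh-7 and from 0 to 0.14 TPM in MHCC-97H. Of the CYP2C genes on chromosome 10, CYP2C18, the paclitaxel hydroxylase CYP2C8 and the clopidogrel-activating CYP2C19 reached at most 0.11, 0.10 and 0.03 TPM. CYP2A6, the nicotine oxidase, was above 0 in 1 library (0.06 TPM), CYP2A7 in 2 (at most 0.15 TPM), CYP2B6, a target of NR1I3, in 3 (at most 0.03 TPM) and the lung enzyme CYP2F1 in 1 (0.06 TPM).

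The CYP3A genes, which lie together on chromosome 7 and in adult liver oxidise a large share of all drugs, were near 0 in both lines. CYP3A4, the main adult enzyme, was listed at 0 in all 3 Huh-7 si-CENPU libraries, against 0.32, 0.09 and 0.08 TPM in Huh-7 si-NC libraries. In MHCC-97H it was at 0.13, 0.03 and 0 TPM with si-CENPU and at 0.05, 0.24 and 0.03 TPM with si-NC. CYP3A5, its polymorphic relative, was also listed at 0 in the 3 Huh-7 si-CENPU libraries, against 0.13, 0.12 and 0 TPM in Huh-7 si-NC libraries, and was at 0.21, 0.79 and 0.13 TPM in MHCC-97H si-CENPU libraries and at 0.23, 0.26 and 0.45 TPM in MHCC-97H si-NC libraries. CYP3A7, the fetal liver form, was at 0 in the Huh-7 si-CENPU libraries, against 0, 0.05 and 0.13 TPM in Huh-7 si-NC libraries, and reached 0.17 TPM in MHCC-97H, while CYP3A43 was above 0 in 1 library (0.04 TPM). The 4 CYP3A genes together were thus at 0 in every Huh-7 si-CENPU library, against 0.45, 0.30 and 0.21 TPM in the Huh-7 si-NC libraries. In MHCC-97H their sums overlapped, at 0.51, 0.82 and 0.15 TPM with si-CENPU and 0.30, 0.50 and 0.48 TPM with si-NC. These are levels at which a 0 may be a failed estimate, and no fold change is given. Reads may also have been shared between these related genes, so their values are not separate observations.

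Family 4, whose members mainly hydroxylate the far end of fatty acids, held the most abundant of the 53 genes. CYP4F12, which oxidises arachidonic acid derivatives and some antihistamines, was at 11.66, 14.17 and 14.93 TPM in Huh-7 si-CENPU libraries and at 10.12, 11.24 and 12.43 TPM in Huh-7 si-NC libraries. The 3 MHCC-97H si-CENPU libraries listed it at 0, and those with si-NC had 0.12, 0 and 0 TPM. It was thus high in every Huh-7 library and at or near 0 in every MHCC-97H library. The difference was 3.86 (log2, SE 0.127, adjusted p = 1.84e-10) with si-CENPU and 3.56 (adjusted p = 3.81e-10) with si-NC, values that depend on the added constant of 1 TPM.

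CYP4F12 lies on chromosome 19 at 15672757 to 15697174 (GRCh38), within a row of 6 CYP4F genes in the order CYP4F22, CYP4F8, CYP4F3, CYP4F12, CYP4F2 and CYP4F11. Only genes of this report were ordered, so other genes may lie between them. The genes listed before and after CYP4F12 were also higher in Huh-7, at much lower levels. CYP4F3, the omega-hydroxylase of leukotriene B4, was at 1.13, 1.41 and 1.35 TPM in Huh-7 si-CENPU libraries and at 0.48, 1.51 and 1.25 TPM in Huh-7 si-NC libraries, against at most 0.04 TPM in MHCC-97H. CYP4F2, which oxidises vitamin K and arachidonic acid, ranged from 0.08 to 0.48 TPM in Huh-7 and was at 0 in MHCC-97H. The outer members CYP4F8, CYP4F11 and CYP4F22, the last a skin ceramide enzyme, reached at most 0.01, 0.03 and 0.02 TPM in any library. CYP4F genes are close copies of each other, so part of the reads may have been assigned to a neighbour.

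CYP4V2 is a fatty acid hydroxylase that is mutated in Bietti crystalline dystrophy of the eye. It was at 0.96, 0.43 and 0.95 TPM in Huh-7 si-CENPU libraries and at 1.29, 0.77 and 0.99 TPM in Huh-7 si-NC libraries. In MHCC-97H it was at 0.01, 0.15 and 0.09 TPM with si-CENPU and at 0.08, 0.02 and 0.03 TPM with si-NC. The lines did not overlap, and the ratio of the means was 14.2. The lauric acid hydroxylase CYP4A11 and its copy CYP4A22, and CYP4X1, reached at most 0.02 TPM.

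**Figure D2:**
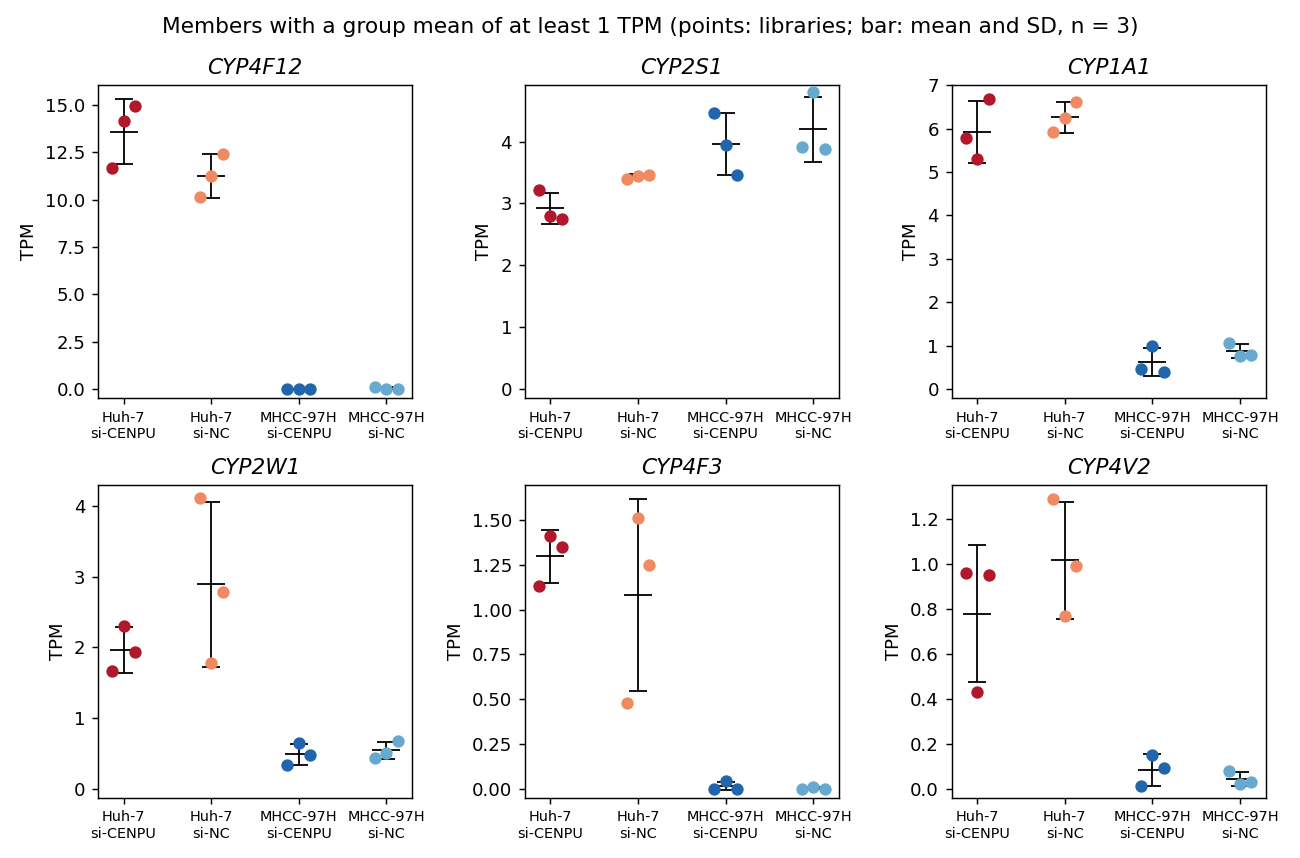
TPM of the 6 genes with a group mean of at least 1 TPM, with 1 point per library, the mean as a long bar and the SD as whiskers (n = 3 per group); each panel has its own linear axis. CYP4F12, CYP1A1, CYP2W1, CYP4F3 and CYP4V2 are higher in both Huh-7 groups than in both MHCC-97H groups, while CYP2S1 lies between 2.75 and 4.81 TPM in all 4.

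The UGT genes were low in Huh-7 and almost without signal in MHCC-97H. Their sum was 2.40 ± 0.350 TPM in Huh-7 si-CENPU libraries and 2.49 ± 0.422 TPM in Huh-7 si-NC libraries (SD, n = 3 each). In MHCC-97H the 18 genes summed to 0.04, 0.03 and 0 TPM with si-CENPU and to 0.20, 0 and 0 TPM with si-NC. All of the MHCC-97H signal came from UGT1A6 and UGT2B10, and 16 of the 18 genes were listed at 0 in all of its libraries.

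The UGT1A genes on chromosome 2 each have a first exon of their own and share their last exons, 3 of which the annotation gives to all 7 UGT1A genes that it lists with exons, so reads of the shared part cannot be assigned to 1 of them. UGT1A1, the bilirubin-conjugating enzyme, was at 0.75, 0.71 and 0.72 TPM in Huh-7 si-CENPU libraries and at 0.54, 0.88 and 0.59 TPM in Huh-7 si-NC libraries, and was listed at 0 in all MHCC-97H libraries. UGT1A9, which conjugates propofol and other phenols, was at 0.20, 0.32 and 0.37 TPM in Huh-7 si-CENPU libraries and at 0.17, 0.32 and 0.68 TPM in Huh-7 si-NC libraries, with 0 in MHCC-97H. Both were present in every Huh-7 library, and the si-CENPU and si-NC values overlapped. UGT1A4, which conjugates amines such as lamotrigine, was above 0 in 5 of 6 Huh-7 libraries (at most 0.18 TPM), UGT1A7 in 1 (0.01 TPM), and the gut forms UGT1A8 and UGT1A10 in none. UGT1A6, which conjugates small phenols, was the only UGT1A gene above 0 in MHCC-97H, at 0.04 TPM in 1 si-CENPU library and 0.20 TPM in 1 si-NC library. Because the genes of this locus share exons, their values were also added up before fitting: with no filter on low values the sum was higher in Huh-7 by 1.05 (log2, SE 0.144, adjusted p = 0.000207) with si-CENPU and by 1.04 (adjusted p = 0.000213) with si-NC in limma.

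The UGT2 genes on chromosome 4 followed the same order of lines. UGT2B4, which conjugates bile acids, was at 0.46, 0.64 and 0.84 TPM in Huh-7 si-CENPU libraries and at 0.43, 0.54 and 0.42 TPM in Huh-7 si-NC libraries. UGT2B7, which conjugates morphine, was at 0.26, 0.62 and 0.56 TPM in Huh-7 si-CENPU libraries and at 0.60, 0.11 and 0.60 TPM in Huh-7 si-NC libraries. UGT2B17, which conjugates androgens, was at 0.10, 0.12 and 0.06 TPM in Huh-7 si-CENPU libraries and at 0.31, 0.08 and 0.29 TPM in Huh-7 si-NC libraries. All 3 were listed at 0 in every MHCC-97H library, and in Huh-7 the si-CENPU and si-NC values of each overlapped. UGT2A3 was above 0 in all 6 Huh-7 libraries but never over 0.08 TPM, and UGT2B10, which conjugates nicotine, and UGT2B11 stayed at or under 0.07 and 0.13 TPM. The olfactory form UGT2A1 was above 0 in 2 libraries, at most 0.03 TPM, and the androgen-conjugating UGT2B15 was at 0 in all 12 libraries.

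**Figure D3:**
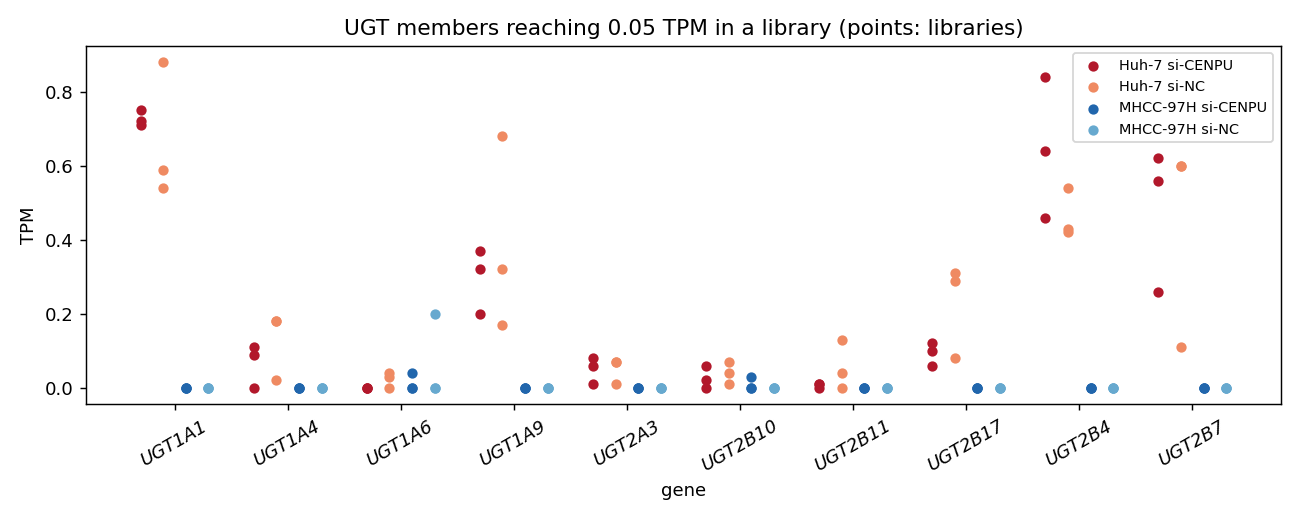
TPM of the 10 UGT genes that reached 0.05 TPM in a library, with 1 point per library on a linear axis and the 4 groups side by side in colour. UGT1A1, UGT1A9, UGT2B4, UGT2B7 and UGT2B17 are above 0 in all Huh-7 libraries and at 0 in all MHCC-97H libraries; no point reaches 1 TPM.

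Knockdown of CENPU moved none of the testable genes past the threshold. In Huh-7, limma called 0 of the 4 genes, and 0 had an unadjusted p under 0.05; among all 11088 tested genes 0.00902% were called and 507 had an unadjusted p under 0.05. CYP4F12 averaged 13.6 ± 1.71 TPM with si-CENPU and 11.3 ± 1.16 TPM with si-NC (SD, n = 3 each), a difference of 0.25 (log2, 95% interval -0.03 to 0.53, adjusted p = 1 in limma). CYP2W1 averaged 1.96 ± 0.321 TPM with si-CENPU and 2.89 ± 1.17 TPM with si-NC, a difference of -0.35 (-0.80 to 0.09). CYP2S1 averaged 2.92 ± 0.252 TPM with si-CENPU and 3.44 ± 0.0321 TPM with si-NC, a difference of -0.18 (-0.45 to 0.09). CYP1A1 averaged 5.92 ± 0.706 TPM with si-CENPU and 6.26 ± 0.350 TPM with si-NC, a difference of -0.07 (-0.41 to 0.27). Each interval includes 0, and those of CYP4F12 and CYP2W1 also include changes of over 0.5 on the log2 scale. The median of the 4 differences was -0.13, against 0.01 over all tested genes.

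In MHCC-97H, limma likewise called 0 of the 4 genes with none under an unadjusted p of 0.05, though CYP4F12, listed at 0 in 5 of the 6 libraries, had no level there to test. This stands against 0.00902% of all tested genes called and 379 with an unadjusted p under 0.05. CYP1A1 averaged 0.620 ± 0.332 TPM with si-CENPU and 0.873 ± 0.162 TPM with si-NC, a difference of -0.23 (log2, 95% interval -0.57 to 0.12, adjusted p = 1). The differences of CYP2S1 and CYP2W1 were -0.07 and -0.06. Responses were compared between the lines by the interaction term, Huh-7 minus MHCC-97H, which called 0 of the 4 genes and 0.00902% of all tested genes, with 383 of all and 0 of the 4 under an unadjusted p of 0.05. Among the 3 genes with a level in both lines its largest value was that of CYP2W1, -0.29 (95% interval -0.93 to 0.34, adjusted p = 0.999).

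Among all 53 genes, whatever their level, no gene had its 3 si-CENPU libraries above its 3 si-NC libraries in Huh-7, against 2.77% of all protein-coding genes, and 3 had them below, CYP2D6, CYP2S1 and CYP3A4, against 2.64%. In MHCC-97H neither count included any of the 53, against 1.95% and 2.98%. CYP3A4 was the 1 gene above 0 in all Huh-7 si-NC libraries and listed at 0 in all Huh-7 si-CENPU libraries, as were 0.161% of all protein-coding genes. With no filter on low values, limma called 0 of 44 genes in either line, against 0.00991% of all genes called higher and 0.0033% lower in Huh-7, and 0.00991% higher and 0.0132% lower in MHCC-97H. Of the 44, 4 in Huh-7 and 0 in MHCC-97H had an unadjusted p under 0.05. In that fit CYP2D6 differed by -0.28 in Huh-7 (log2, SE 0.0960, adjusted p = 0.955), CYP3A4 by -0.21 (adjusted p = 1), UGT2B17 by -0.16 (adjusted p = 1) and CYP2A7 by 0.11 (adjusted p = 0.961).

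**Figure D4:**
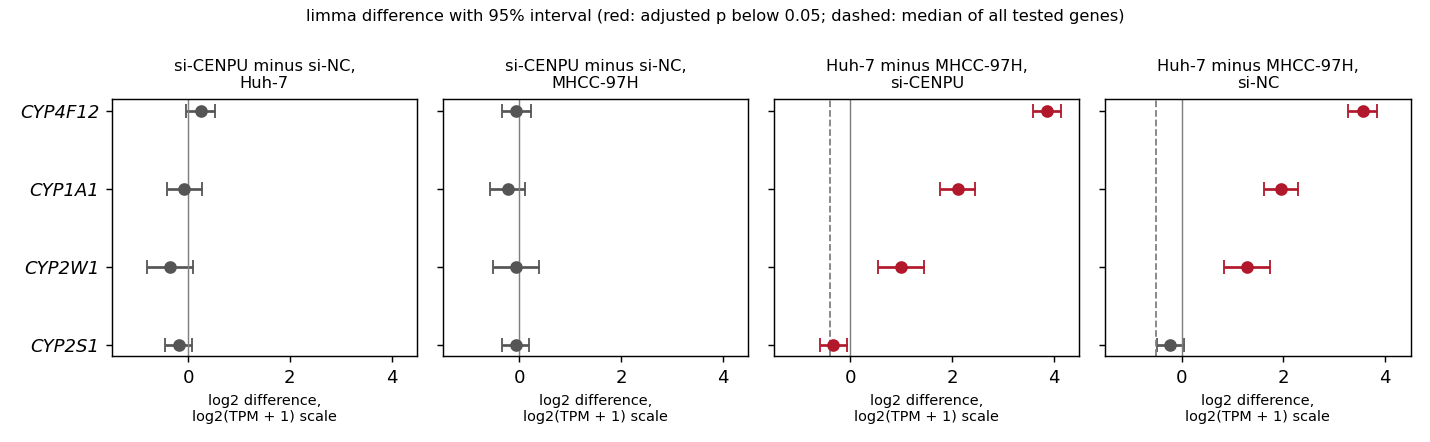
Limma differences of the 4 tested genes on the log2(TPM + 1) scale with 95% intervals: si-CENPU minus si-NC in Huh-7 and in MHCC-97H, then Huh-7 minus MHCC-97H in the si-CENPU and si-NC libraries. Red marks an adjusted p under 0.05 and the dashed line the median of all tested genes (-0.40 with si-CENPU and -0.49 with si-NC); the knockdown intervals all include 0, and CYP4F12, CYP1A1 and CYP2W1 lie to the right in both line comparisons.

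The redox partners and cofactor genes that P450s and UGTs depend on were expressed in both lines. POR, the reductase that supplies every P450 of these families with electrons, was at 43.5 ± 0.528 TPM in Huh-7 si-CENPU libraries, 45.0 ± 4.66 TPM in Huh-7 si-NC libraries, 60.1 ± 8.98 TPM in MHCC-97H si-CENPU libraries and 63.2 ± 1.40 TPM in MHCC-97H si-NC libraries (SD, n = 3 each). Of the 10 genes of this list, 9 were tested, and in Huh-7 relative to MHCC-97H none was called higher and 4 (with si-CENPU) or 6 (with si-NC) were called lower, with a median of -0.37 and -0.49, close to those of all genes. The si-NC call of POR (-0.49, adjusted p = 0.00208) was lost with both other scalings, and 1 of the 6 lower calls remained with trimmed-mean scaling, that of PGRMC1, a haem-binding partner of P450s, at -1.54 (adjusted p = 0.000115) in the main fit.

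The regulators of these genes did not all differ between the lines in the same direction. Of 23 listed regulators 18 were tested, and with either small interfering RNA 8 were called higher in Huh-7, among them FOXA1, FOXA2, FOXA3, HNF4A, CEBPA, ONECUT1 and NR0B2. Of the 8, 7 had a mean under 1 TPM in MHCC-97H and so passed the filter through Huh-7, the line where they were high. All 8 remained called with trimmed-mean and quantile scaling, with si-CENPU as with si-NC. FOXA3, a pioneer factor of liver genes, averaged 27.8 and 29 TPM in Huh-7 with si-CENPU and si-NC, against 0 and 0.00667 TPM in MHCC-97H with si-CENPU and si-NC. HNF4A averaged 10.8 and 11 TPM in the Huh-7 si-CENPU and si-NC groups, against 0.600 and 0.550 TPM in the MHCC-97H groups in the same order. Called lower were 5 regulators with si-CENPU and 6 with si-NC, of which 3 each had a mean under 1 TPM in Huh-7. The lower calls remained for 4 of 5 (si-CENPU) and 4 of 6 (si-NC) with trimmed-mean scaling and for 3 of 5 and 5 of 6 with quantile scaling, and those of AHRR, ARNT and RXRA were among them each time. CEBPB averaged 47.6 and 41.5 TPM in Huh-7 with si-CENPU and si-NC, against 62.5 and 76.9 TPM in MHCC-97H. Its lower call with si-NC was lost with trimmed-mean scaling. Of all tested genes 23.9% were called higher and 46.2% lower with si-CENPU, and 22.9% and 50.1% with si-NC.

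AHR and its partners ran differently from the liver factors. AHR was at 1.11 and 1.03 TPM in Huh-7 with si-CENPU and si-NC, against 1.27 and 1.33 TPM in MHCC-97H with si-CENPU and si-NC, and was not called. ARNT, its dimer partner, was at 0.0800 and 0.330 TPM in the same Huh-7 groups, against 2.53 and 3.05 TPM in the MHCC-97H groups, and was called lower in Huh-7 by 1.67 (adjusted p = 7.85e-05) in the si-NC libraries, where 0.95 TPM in replicate 1 made up most of its Huh-7 level. AHRR, the repressor that competes for ARNT and is itself an AHR target, was at 0.127 and 0.140 TPM in Huh-7, against 5.35 and 5.6 TPM in MHCC-97H, and was called lower in Huh-7 by 2.53 (adjusted p = 1.76e-08). CYP1A1 was thus higher in the line with the lower ARNT and AHRR levels. The drug receptors were low but higher in Huh-7 on average. NR1I2 was at 0.350 and 0.310 TPM in Huh-7 and listed at 0 in MHCC-97H, and NR1I3 was at 0.423 and 0.303 TPM in Huh-7, against 0.163 and 0.0467 TPM in MHCC-97H.

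**Figure D5:**
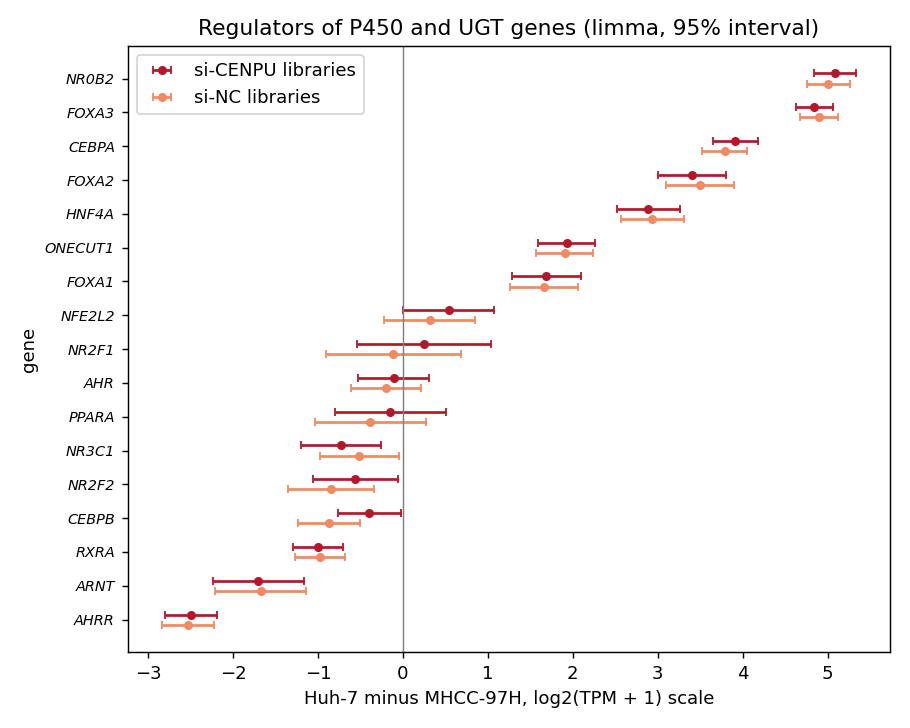
Limma difference Huh-7 minus MHCC-97H of 17 tested regulators on the log2(TPM + 1) scale with 95% intervals, dark red for si-CENPU and orange for si-NC libraries, sorted by the difference. NR0B2, FOXA3 and CEBPA lie farthest to the right (3.79 to 5.01 with si-NC), AHRR and ARNT farthest to the left, and AHR has an interval that includes 0.

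Other enzymes of drug handling did not all run with the P450s. Of 39 conjugating and hydrolysing enzymes 22 were tested; 12 were called higher and 8 lower in Huh-7 with si-CENPU, and 11 higher and 8 lower with si-NC, against the shares of all tested genes given above. The lower call of CES2 was lost with both other scalings, and 6 of the higher and 3 of the lower genes had a mean under 1 TPM in the line where they were low. The carboxylesterase CES1 averaged 32.5 ± 3.94 TPM in Huh-7 si-CENPU libraries and 35.0 ± 9.13 TPM in Huh-7 si-NC libraries and was listed at 0 in MHCC-97H. The epoxide hydrolase EPHX1, which acts on P450 products, averaged 0.0433 and 0.150 TPM in Huh-7 with si-CENPU and si-NC, against 36.7 ± 3.32 and 36.6 ± 2.73 TPM in MHCC-97H with si-CENPU and si-NC. The microsomal glutathione transferase MGST3 averaged 0.0267 and 0.0967 TPM in Huh-7, against 373 ± 34.3 and 374 ± 24.1 TPM in MHCC-97H. MGST1, its relative, averaged 0.560 and 0.0900 TPM in Huh-7, against 22.7 ± 1.08 and 23.7 ± 3.03 TPM in MHCC-97H. EPHX1, MGST1 and MGST3 were thus higher in MHCC-97H, whereas CES1 was higher in Huh-7, as was MGST2, the third microsomal transferase gene, with means of 97.3 TPM in Huh-7 and 22.1 TPM in MHCC-97H.

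Of 17 drug transporters 9 were tested; 7 were called higher and 2 lower in Huh-7 with si-CENPU, and 6 higher and 1 lower with si-NC, against the same shares. Of the higher ones, 5 with si-CENPU and 4 with si-NC had a mean under 1 TPM in MHCC-97H, and 1 of the 2 lower calls with si-CENPU remained with both other scalings. SLCO2B1, an uptake carrier of organic anions, averaged 6.02 and 6.54 TPM in Huh-7, against 0.0167 and 0.0200 TPM in MHCC-97H, and the export pump ABCC1 averaged 1.06 and 1.05 TPM in Huh-7, against 8.32 and 9.11 TPM in MHCC-97H. Of 22 P450 genes outside families 1 to 4, 5 were tested, with 3 called higher and 2 lower with si-CENPU, and 2 higher and 2 lower with si-NC, again beside 23.9% and 46.2%, and 22.9% and 50.1%, of all tested genes. The lower call of CYP51A1 was lost with trimmed-mean scaling, and with quantile scaling in the si-NC libraries. The steroid side-chain cleavage enzyme CYP11A1 was lower in Huh-7, at 1.10 and 1.21 TPM against 6.23 and 5.93 TPM in MHCC-97H. Prostacyclin synthase PTGIS was higher, at 2.21 and 2.41 TPM in Huh-7, and was listed at 0 in MHCC-97H. Knockdown of CENPU gave 0 calls in each of these lists in both lines; 3 genes in Huh-7 and 2 in MHCC-97H had an unadjusted p under 0.05, and the smallest adjusted p was 0.828, for MGST1 in Huh-7. None of the 3 listed UGT genes outside families 1 and 2 passed the filter.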

How the data were processed

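TPM values for 60664 Ensembl gene identifiers in 12 libraries were used as deposited by the authors. Per the submitters' processing notes, HISAT2 and StringTie were used with GRCh38.p13. Annotation, strand setting and filters are not stated in the labels, so overlapping, antisense and near-identical genes may share reads. Depth is unknown, since TPM keeps none. Symbols were matched by identifier for 60447 identifiers, gene types and positions came from GENCODE release 29 (for UGT1A5, the type from RefSeq), and promoters from RefSeq on GRCh38.p14. Columns summed to between 998416 and 999065 TPM.

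Genes with a mean of at least 1 TPM were fitted on log2(TPM + 1) with limma 3.58.1 in R 4.3.3, with 1 mean per group over all 12 libraries and trended empirical Bayes. P-values are two-sided and Benjamini-Hochberg adjusted over 11088 genes per comparison, and genes with an adjusted p under 0.05 were called. Fold changes on this scale understate those of low genes. Genes with a group mean of at least 1 TPM are given in every library; the others were to be given by their highest value, and those given in more detail were chosen after their values were seen. The genes and lists were chosen with earlier results of these data known. The fit was tested on simulated data. Values of a few single genes of the lists are not reported here. Python 3.11.15 with matplotlib 3.10.9 drew the figures. Alternatives were other pseudocounts, filters and scalings, each comparison's own groups, a replicate block and leaving out each library.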

Additional observations from a re-analysis of the deposited data

How the results depend on the processing

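In the comparison of lines, the number of the 53 genes called changed with the filter: with si-CENPU it was 4, against 16 with no filter and 1 with a mean of at least 5 TPM; with si-NC it was 3, against 18 with no filter, 1 with a mean of at least 5 TPM and 5 with a group mean of at least 1 TPM. These filters change how many genes are tested. Leaving out each library in turn gave 3 to 4 calls with si-CENPU and 3 with si-NC. The knockdown comparisons gave 0 calls under every setting tried. The line calls of CYP1A1, CYP2W1 and CYP4F12 held in every alternative in which they were tested, but the pseudocount set the size for CYP4F12, with up to 7.09 (log2) with si-CENPU and 6.44 with si-NC. All 3 passed the main filter through Huh-7, with means under 1 TPM in MHCC-97H, so their calls remain a description. Of 458 alternative values for 20 single-gene results, 444 kept direction and call, 8 changed sign and 6 lost the call with the same sign. These 6 were of CYP2S1 with si-CENPU: with quantile scaling (adjusted p = 0.939), in a fit of its own groups (0.0540), without Huh-7 si-CENPU replicate 2 (0.0735) or 3 (0.0798), and without MHCC-97H si-CENPU replicate 1 (0.113) or 2 (0.0608). With trimmed-mean scaling (0.963) this call was lost as well, with a change of sign, which makes 7 lost calls. The line difference of CYP2S1 changed sign with trimmed-mean scaling, to 0.0069 with si-CENPU and 0.19 with si-NC, and with quantile scaling to 0.19 with si-NC. Its MHCC-97H knockdown difference changed sign with quantile scaling, to 0.0065, and ranged from -0.141 to 0.0140 when each library was left out; that of CYP2W1 ranged from -0.134 to 0.0117. The cause was not tested.

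With the replicate number as a block, 0 genes were called in each knockdown comparison and in their difference, 3 in the lines with si-NC and 4 with si-CENPU, as without it. The deviations of same-numbered libraries had correlations of -0.0324, -0.0907 and 0.0284 in Huh-7 and -0.0326, -0.0914 and 0.134 in MHCC-97H. These values cannot tell whether same-numbered libraries were prepared together. Unknown depth limits all statements on genes under 1 TPM.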
